A study of Mus musculus with 5 samples.

Results

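The 10 genes described here belong to the BCL2 family, the proteins that set whether the mitochondrial outer membrane of a cell stays intact or is opened at the onset of apoptosis. They were taken by symbol and matched to their Entrez identifiers. The rule uses no measured value, but the genes were chosen with earlier results of these data known. Counts of them set beside all genes below are therefore descriptions. The 10 comprised 5 survival genes (Bcl2, Bcl2l1, Mcl1, Bcl2a1b and Bcl2a1d), 2 effectors (Bax and Bak1) and 3 BH3-only genes (Bcl2l11, Bbc3 and Pmaip1), out of 17058 genes with an entry in the expression tables. All 10 passed the filter on low counts and were tested among 12576 genes.

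RNA-Seq was performed on bone marrow-derived macrophages (BMDMs) of Balb/c mice after 48 hours of coculture with 4T1 cells, a mouse mammary carcinoma line. To ask how ADAM17 in the cancer cells affects the macrophages, 2 libraries from coculture with WT 4T1 cells were compared with 3 libraries from coculture with Adam17-/- 4T1 cells. ADAM17 is a protease that releases growth factors, cytokines and receptors from the cell surface. By the study's methods, the bone marrow came from young adult mice, was differentiated with M-CSF in both groups, and was kept apart from the cancer cells by a porous membrane. The macrophages of both groups were genetically WT. The labels give all 3 Adam17-/- libraries the same knock-out designation, 2.8, so an effect of ADAM17 loss and one of anything else that marks that 4T1 line cannot be told apart. Repeats are numbered in the labels, with nothing said of separate cultures or animals, so the p-values measure only the spread between these libraries.

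The BCL2 family falls into groups that act on one another by direct binding. Survival proteins hold the effectors BAX and BAK in check, the effectors form pores that release cytochrome c, and BH3-only proteins place a short helix, the BH3 domain, into a groove on the survival proteins and so displace the effectors or activate them. Macrophages live on CSF-1 signaling, and MCL1, BCL-xL and the A1 proteins are among the survival proteins of the myeloid lineage. A transcript level is not a protein level, and MCL1 and NOXA in particular are short-lived proteins.

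The BH3 domain is the helix through which family members bind each other, and the coding stretch for it is shown for the members in which a pattern search found it. The pattern was a leucine codon, 3 codons of any kind, a glycine or alanine codon and an aspartate codon, read in frame on the coding strand of the most abundant transcript (GENCODE M21, GRCm38). Each stretch is 33 bases long, from 5′ to 3′, and the capitals mark the leucine, glycine or alanine, and aspartate codons.
Bcl2, chr1:106712575-106712607, minus strand, pattern from codon 94 of 236: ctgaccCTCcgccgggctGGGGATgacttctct
Bcl2l1, chr2:152829697-152829729, minus strand, pattern from codon 90 of 233: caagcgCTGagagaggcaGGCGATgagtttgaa
Mcl1, chr3:95659430-95659462, plus strand, pattern from codon 194 of 331: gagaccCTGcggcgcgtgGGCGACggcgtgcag
Bax, chr7:45465997-45466029, minus strand, pattern from codon 63 of 192: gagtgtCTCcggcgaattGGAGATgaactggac
Bak1, chr17:27022531-27022563, minus strand, pattern from codon 76 of 209: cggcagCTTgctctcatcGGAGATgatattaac
Bcl2l11, chr2:128147144-128147176, plus strand, pattern from codon 150 of 196: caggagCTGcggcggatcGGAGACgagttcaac
Bbc3, chr7:16313767-16313799, plus strand, pattern from codon 141 of 193: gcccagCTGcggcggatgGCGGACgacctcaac
Bmf, chr2:118545100-118545132, minus strand, pattern from codon 224 of 271: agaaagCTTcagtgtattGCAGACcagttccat
Bmf, a further BH3-only gene described below, is not one of the 10. Each of these 8 coding sequences held the pattern once, and the Bcl2a1b and Bcl2a1d coding sequences did not hold it. Pmaip1 was not searched, so nothing is said here of its sequence. Of 21901 mouse coding sequences, 1 for each gene, 23.7% held the pattern somewhere, and of those with 172 to 331 codons, the span of the sequences searched, 12.5% did. A match is a description of the letters and no measure of binding.

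The libraries held 14658694 to 20788373 counts, so that 3 counts, taken as the detection floor, were 0.157 to 0.197 CPM, the count divided by the TMM-scaled size of its library. Such floors cover counting error only. The knock-out was in the cancer cells and the RNA was from macrophages, so macrophage Adam17 does not check the labels. It stood at 197.5 and 199.6 CPM in WT and 152, 164 and 161 CPM in Adam17-/- coculture, with a log2 fold change of -0.32 (SE 0.0779, edgeR adjusted p = 0.0129).

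Macrophage markers were abundant in every library, with Lyz2 between 7724 and 12836 CPM, but the marker levels of several cell types differed between the groups. Of 9 macrophage markers, 7 were lower in Adam17-/- coculture, at a median of -0.55 on the log2 scale, and their summed level was 28290 to 29060 CPM in WT and 18420 to 20400 CPM in Adam17-/-. Of 10 neutrophil markers, 9 were higher (median 1.76), with sums of 651 to 812 and 1649 to 1905 CPM, and of 7 megakaryocyte markers, 6 were higher (median 1.13), with sums of 77.5 to 84.3 and 116 to 204 CPM. Mpo, a primary granule gene of neutrophil precursors, was at 63.2 CPM in Adam17-/- replicate 2 and between 6.76 and 18.5 CPM in the other libraries. Dendritic cell markers summed to 9.63 to 15.2 and 16.8 to 23.3 CPM, with 2 of 6 tested higher, lymphocyte markers to 2.81 to 4.45 and 4.50 to 5.46 CPM, with neither of the 2 tested passing in edgeR, and erythroid markers to 1.41 to 2.77 and 3.89 to 4.93 CPM, with 1 of 2 tested higher. The 4T1 epithelial markers summed to 11 to 12.6 and 11.9 to 13.9 CPM, nearly all of it Cdh1. Krt18 was at 0.271 to 0.438 CPM, above the floor in every library, and Krt8 and Cldn4 were at most at 0.159 CPM. Epcam, Krt14 and Krt19 were at or below 0.0658 CPM in every library. Of 8 proliferation genes, 4 were higher and 1, Mcm5, was lower (median 0.37). MCL1 and the A1 proteins are also survival proteins of neutrophils, and the part of the marker differences in any result below was not tested. Fewer cells of a type and less RNA per cell cannot be told apart in such bulk libraries.

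In macrophages cocultured with Adam17-/- 4T1 cells, the survival genes moved in different directions while the 3 BH3-only members were all higher. Mcl1 and the 3 BH3-only genes passed the test as higher (4 of 10), Bcl2l1, Bcl2 and Bak1 passed as lower (3 of 10), and Bcl2a1b, Bcl2a1d and Bax did not pass. Passing meant an adjusted p of at most 0.05 in edgeR's quasi-likelihood test over the whole table, which 14.9% of the genes met as higher and 16.8% as lower. For 7 of the 10 genes the WT and Adam17-/- values did not overlap, against 58.1% of all genes tested. The median log2 fold change was 0.08 over the 10 genes and 0.01 over all genes.

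The division of all genes into higher and lower depended on the scaling. With TMM factors (the trimmed mean of M values), 46.9% of the passing genes were higher, 57.9% with upper quartile factors, 73.7% with library size only, and 74.2% and 73.9% on the log2(FPKM + 0.1) and log2(FPKM + 1) scales. Over the whole table, the median moved from 0.01 to 0.07, 0.16, 0.15 and 0.11 in that order. Under all of these scalings the 7 passing members kept their direction. All fold changes below are with TMM factors, as log2 of the Adam17-/- level over the WT level.

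**Figure D1:**
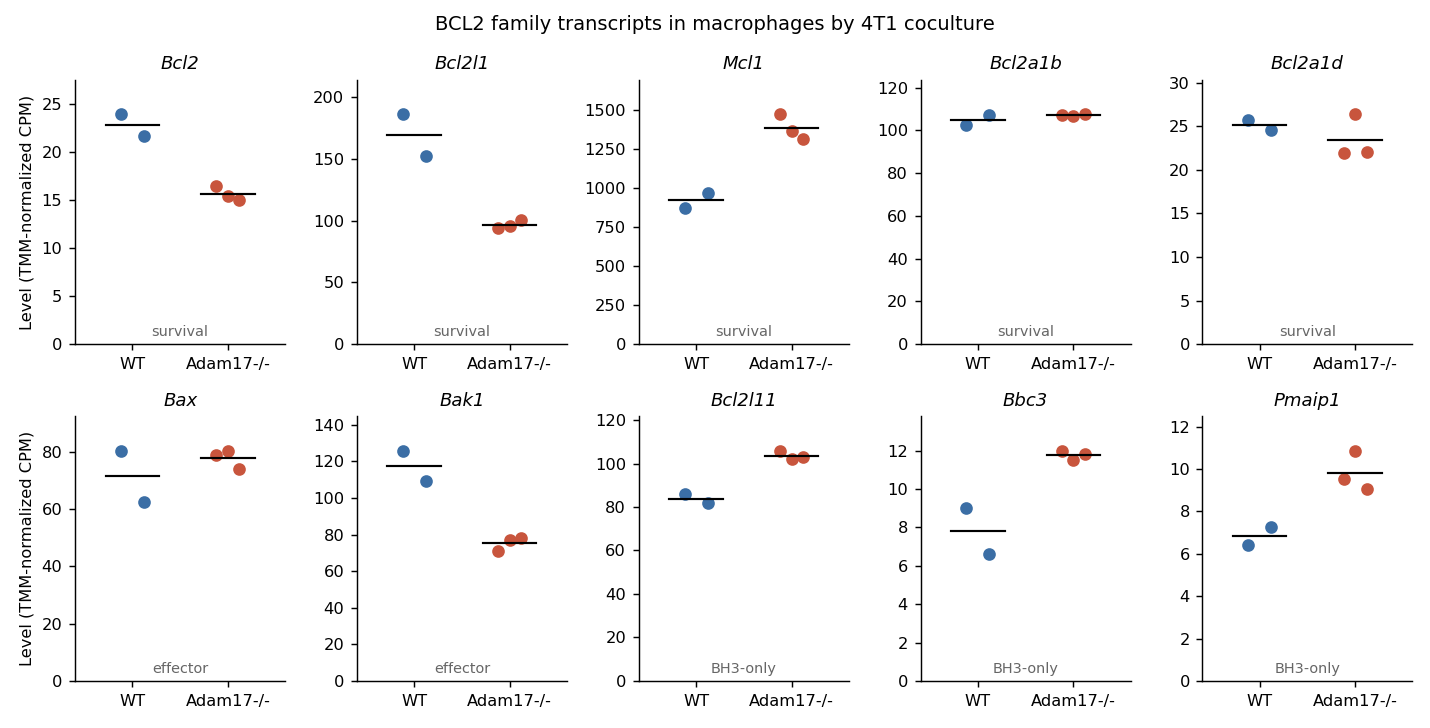
Levels of the 10 BCL2 family genes in TMM-normalized CPM on a linear axis from 0, with 1 point for each library, WT coculture in blue and Adam17-/- coculture in red, and a line at each group mean. The 3 Adam17-/- points lie below both WT points for Bcl2, Bcl2l1 and Bak1, above both for Mcl1, Bcl2l11, Bbc3 and Pmaip1, and the ranges of the groups overlap for Bcl2a1b, Bcl2a1d and Bax.

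Bcl2l1, which encodes the survival protein BCL-xL, had the log2 fold change of largest size among the 7 that passed. It lies on chr2:152758732-152833803 (GRCm38). Its level was 186 and 152 CPM in WT and 93.9, 95.8 and 100.4 CPM in Adam17-/- coculture. No WT value lay within the Adam17-/- range, and the WT pair was spread more widely than the 3 Adam17-/- libraries. The level was 1.75-fold lower, with a log2 fold change of -0.81 (SE 0.0980, edgeR adjusted p = 0.000711). It passed in all 13 alternative fits, with log2 fold changes from -0.95 to -0.64. The counts lay on transcripts that share a 233-codon coding sequence, the 2 main ones with 53.1% to 65.9% and 34.1% to 46.5% of the counts, with up to 6.08% on a further one and up to 0.105% on one with no coding length here. The genes with the nearest profiles over the 5 libraries, by Euclidean distance of centred log2 CPM, were Nolc1 (0.0293), Chst14 (0.0354) and Nfic (0.0528).

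Mcl1, whose product restrains BAK and the BH3-only proteins BIM and NOXA, moved the other way. Mcl1 (chr3:95656944-95663179) was at 874 and 970 CPM in WT and at 1474, 1369 and 1314 CPM in Adam17-/- coculture. All 3 Adam17-/- libraries lay above both WT libraries. The level was 1.5-fold higher, with a log2 fold change of 0.59 (SE 0.0937, edgeR adjusted p = 0.00211). It passed in all 13 alternatives, with values from 0.51 to 0.74.

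Bcl2, the founding survival gene of the family, was expressed at a low level. Bcl2 (chr1:106538176-106714290) was at 23.9 and 21.6 CPM in WT and 16.4, 15.4 and 15.0 CPM in Adam17-/- coculture. Both WT values lay above all 3 Adam17-/- values. The log2 fold change was -0.54 (SE 0.106, edgeR adjusted p = 0.00513), a level 1.46-fold lower. On the log2(FPKM + 0.1) and log2(FPKM + 1) scales, limma gave -0.38 and -0.29 with adjusted p of 0.061 and 0.0512. The 236-codon form took 97.4% to 98.3% of the Bcl2 counts in every library. An antisense gene, D630008O14Rik, overlaps Bcl2 exons and has no entry in the tables, and whether counting used strand is not given in the sources used here.

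The Bcl2a1 genes encode the A1 survival proteins, which are induced by NF-kB in myeloid cells, and lie as near-identical copies on chromosome 9. Their sequences bear on how far the counts can be split, so the first 120 coding bases of the 3 copies are shown, with capitals at the 3 positions of this window where Bcl2a1b and Bcl2a1d differ (GENCODE M21, GRCm38).
Bcl2a1b, chr9:89199360-89199479, plus strand: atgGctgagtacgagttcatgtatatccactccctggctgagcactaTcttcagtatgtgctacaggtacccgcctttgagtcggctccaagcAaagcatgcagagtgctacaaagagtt
Bcl2a1d, chr9:88731600-88731719, minus strand: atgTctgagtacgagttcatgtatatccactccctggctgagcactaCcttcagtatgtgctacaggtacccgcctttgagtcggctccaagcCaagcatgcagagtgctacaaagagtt
Bcl2a1a, chr9:88957051-88957170, plus strand: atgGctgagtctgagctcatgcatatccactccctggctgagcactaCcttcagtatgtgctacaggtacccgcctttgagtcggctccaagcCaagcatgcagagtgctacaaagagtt
Over the 516 coding bases, Bcl2a1b and Bcl2a1d differed at 6 positions (98.8% identical) with 217 bases in the longest identical run. Bcl2a1a, which is not one of the 10, differed from Bcl2a1d at 7 positions and from Bcl2a1b at 11. Only coding bases were compared. A read pair that lies wholly within identical sequence cannot be assigned to 1 copy, so the levels of single copies are estimates of the authors' quantification.

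Neither Bcl2a1 member passed the test. Bcl2a1b (chr9:89199273-89207838) was at 103 and 107 CPM in WT and 107, 107 and 108 CPM in Adam17-/- coculture, with a log2 fold change of 0.03 (95% interval -0.14 to 0.20, edgeR adjusted p = 0.780). Bcl2a1d (chr9:88723288-88731850) was at 25.7 and 24.6 CPM in WT and 21.9, 26.4 and 22.0 CPM in Adam17-/- coculture, with a log2 fold change of -0.10 (95% interval -0.36 to 0.15, edgeR adjusted p = 0.506). The values of the groups overlapped for both in CPM, whereas in FPKM those of Bcl2a1b did not. The sign of each turned in some alternatives, for Bcl2a1b to -0.0057 without WT replicate 1 and for Bcl2a1d to 0.04 with library size only. Summed over all Bcl2a1 copies, which does not depend on the split, the level was 139.7 and 144 CPM in WT and 145, 144 and 145 CPM in Adam17-/- coculture. The log2 fold change of the sum was 0.03, with a 95% interval from -0.14 to 0.20 (edgeR adjusted p = 0.801). Gm29094 overlaps Bcl2a1b exons on the same strand and has no entry in the tables.

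Of the effectors, Bak1 was lower and Bax did not pass. Bak1 (chr17:27019812-27028627) encodes BAK, which sits in the outer membrane and is held by MCL1 and BCL-xL. Its level was 126 and 109 CPM in WT and 70.8, 77.0 and 77.9 CPM in Adam17-/- coculture. All Adam17-/- values lay below both WT values. The level was 1.56-fold lower, with a log2 fold change of -0.64 (SE 0.0925, edgeR adjusted p = 0.00136). It passed in all 13, with values from -0.74 to -0.48. Ggnbp1 overlaps Bak1 exons on the opposite strand and was at 1.19 to 3.83 CPM.

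Bax (chr7:45461695-45466903) encodes the effector that moves from the cytosol to mitochondria. It was at 80.3 and 62.7 CPM in WT and 78.9, 80.3 and 74.0 CPM in Adam17-/- coculture. WT replicate 1 was level with the highest Adam17-/- value and WT replicate 2 was below all of them. The log2 fold change was 0.12 (95% interval -0.13 to 0.37, edgeR adjusted p = 0.435), and the call rested on which WT library was kept. It was 0.31 without WT replicate 1 (edgeR adjusted p = 0.0129) and -0.05 without WT replicate 2 (edgeR adjusted p = 0.631). Gm45808 overlaps Bax exons on the same strand and has no entry in the tables.

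The 3 BH3-only members were higher in Adam17-/- coculture, and each of these calls was lost in at least 1 alternative. Bcl2l11 (chr2:128126038-128162547) encodes BIM, which binds every survival protein of the family and is controlled by growth factor signaling. It was at 85.9 and 81.8 CPM in WT and 106, 102 and 103 CPM in Adam17-/- coculture. The groups did not overlap and the libraries of each lay close together. The level was 1.24-fold higher, with a log2 fold change of 0.31 (SE 0.0796, edgeR adjusted p = 0.0180). Without Adam17-/- replicate 1, 2 or 3 the edgeR adjusted p was 0.0754, 0.0508 and 0.0528, with log2 fold changes of 0.31, 0.33 and 0.33. By coding length, 71.9% to 76.6% of the Bcl2l11 counts lay on the 196-codon form, 13.2% to 23.1% on a 140-codon form, 0% to 6.97% on a 110-codon form and 2.81% to 4.55% on a 91-codon form. The ranges of WT and Adam17-/- libraries overlapped for the 196-codon form, at 73.1% and 75.7% in WT and 71.9% to 76.6% in Adam17-/-.

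Bbc3 (chr7:16308398-16318334) encodes PUMA, a p53 target that binds all the survival proteins. It was at 9.0 and 6.60 CPM in WT and 12, 11.5 and 11.8 CPM in Adam17-/- coculture, on 122 to 223 counts. The 3 Adam17-/- values lay above both WT values and close to each other, the WT pair farther apart. This was a log2 fold change of 0.59 (SE 0.152, edgeR adjusted p = 0.0169). Without Adam17-/- replicate 1 it was 0.60 with an edgeR adjusted p of 0.0521, and without WT replicate 2 it was 0.38.

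Pmaip1 encodes NOXA, which binds MCL1 and A1, and lies on chromosome 18 at 66458604 to 66465558. It had 123 to 174 counts and stood at 6.44 and 7.25 CPM in WT and 9.52, 10.9 and 9.05 CPM in Adam17-/- coculture. Every Adam17-/- value was above both WT values. The log2 fold change was 0.52 (SE 0.145, edgeR adjusted p = 0.0242). The adjusted p was 0.0627 without Adam17-/- replicate 1, 0.08 without Adam17-/- replicate 2 and 0.0729 without WT replicate 1 in edgeR, and 0.0632 in DESeq2, with log2 fold changes from 0.43 to 0.56.

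Leaving out libraries changed the count of members that passed as higher from 4 to 1 without Adam17-/- replicate 1 and to 2 without Adam17-/- replicate 2. None of the 10 reached an absolute log2 fold change of 1. For a single gene taken by itself, a two-sided exact permutation test of 2 against 3 libraries cannot give a p below 0.1.

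The remaining family genes were examined as a list of 16, of which 11 were tested. Of these, 4 were higher and 7 did not pass, with a median log2 fold change of 0.05. Bmf, a BH3-only gene whose product is tied to the cytoskeleton, was at 35.8 and 38.9 CPM in WT and 75.5, 75.1 and 69.1 CPM in Adam17-/- coculture. That was a log2 fold change of 0.97 (SE 0.0915, edgeR adjusted p = 0.000347), larger in size than that of any of the 10, and it passed in all 13 alternatives. The 271-codon Bmf form took 65.4% to 100% of the counts and the 190-codon form the rest.

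Bnip3 and Bnip3l, which encode mitochondrial receptors for mitophagy and are targets of the hypoxia response, had the highest levels per length of the list. Bnip3 was at 130 and 196 CPM in WT and 320.2, 259.7 and 290.5 CPM in Adam17-/- coculture, a log2 fold change of 0.83 (SE 0.160, edgeR adjusted p = 0.00494). Bnip3l was at 117 and 151 CPM in WT and 230.0, 195 and 211 CPM in Adam17-/- coculture, a log2 fold change of 0.66 (SE 0.121, edgeR adjusted p = 0.00389). The groups did not overlap for either, and both passed in all 13 alternatives, with Bnip3 at 0.56 without WT replicate 1. Bad, a BH3-only gene and the next highest per length in the mean over the 5 libraries, though not in each of them, was at 17.5 and 20.3 CPM in WT and 17.3, 16.4 and 16.2 CPM in Adam17-/- coculture and did not pass (log2 fold change -0.19, edgeR adjusted p = 0.223). Bid, a BH3-only gene whose product links death receptors to mitochondria, named here after its values were seen, was at 28.5 and 24.2 CPM in WT and 20.7, 20.2 and 22.6 CPM in Adam17-/- coculture and did not pass (log2 fold change -0.32, edgeR adjusted p = 0.0519). For both Bad and Bid all Adam17-/- values lay below both WT values in CPM, as groups did not overlap in 58.1% of all genes tested, while in FPKM their values overlapped. Bcl2l14 passed on 7 and 4 counts in WT and 16, 8 and 19 counts in Adam17-/- coculture, with levels near the floor and a log2 fold change of 1.46 (SE 0.493, edgeR adjusted p = 0.0482). It passed in 5 of the 11 alternatives that tested it, and without WT replicate 1, WT replicate 2 or Adam17-/- replicate 1 the edgeR adjusted p was 0.0809, 0.191 and 0.101. Bcl2l10 and Hrk had no count in any library.

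**Figure D2:**
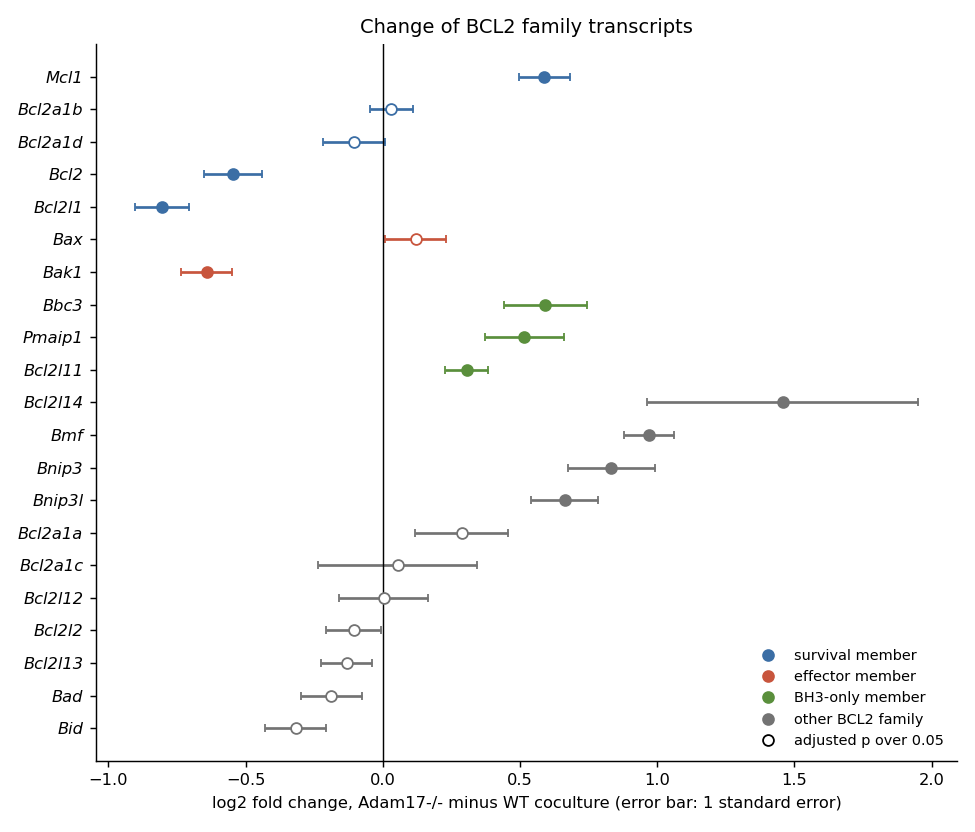
Log2 fold changes of the 10 members and of the 11 tested further family genes, Adam17-/- minus WT coculture, with bars of 1 standard error and open points where the adjusted p was over 0.05. The 3 BH3-only members and Bmf, Bnip3 and Bnip3l lie to the right of 0, and Bcl2l1, Bak1 and Bcl2 to the left. Bcl2l14 has the widest bar.

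The levels per length, in FPKM (fragments scaled to transcript length and library size) as the authors gave them, ordered the genes within each group. In WT coculture the order was Mcl1 (mean 253 FPKM), Bcl2a1b (142), Bax (83.7), Bcl2l1 (65.3), Bak1 (56.5), Bcl2a1d (32.5), Bcl2l11 (16.6), Bbc3 (3.83), Bcl2 (3.15) and Pmaip1 (2.49), and the ranges of no neighbors overlapped, with 2 libraries only. In Adam17-/- coculture Mcl1 (420 FPKM), Bcl2a1b (161) and Bax (101) led again, Bcl2l1 (41.3) and Bak1 (40.1) overlapped, and Bcl2a1d (33.5), Bcl2l11 (22.8), Bbc3 (6.42), Pmaip1 (3.94) and Bcl2 (2.40) followed without overlap. Bcl2 and Pmaip1 thus stood in opposite order in the 2 groups. FPKM carries no TMM factor, and on this scale the 3 Adam17-/- values of Bax (95.7 to 104 FPKM) lay above both WT values (75.2 and 92.2 FPKM), whereas in CPM they overlapped. The same held for Bcl2a1b, at 135 and 148 FPKM in WT and 160 to 162 FPKM in Adam17-/- coculture.

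The survival transcripts were made up differently in the 2 groups. The 5 survival genes summed to 475 and 516 FPKM in WT and 686, 654 and 633 FPKM in Adam17-/- coculture. Without Mcl1 the sums were 242 and 244 FPKM in WT and 236, 241 and 236 FPKM in Adam17-/- coculture. That near equality held on the FPKM scale, where Bcl2a1b averaged 142 FPKM in WT and 161 FPKM in Adam17-/- coculture and did not pass (limma adjusted p = 0.0968 on log2(FPKM + 0.1)). In TMM-normalized CPM, which is not per length, the same 4 genes summed to 338 and 306 in WT and 239.6, 244 and 245 in Adam17-/- coculture, with no overlap, and all 5 to 1212 and 1275 in WT and 1714, 1614 and 1559 in Adam17-/- coculture. Mcl1 was 49.2% and 52.7% of the survival FPKM in WT and 65.6%, 63.2% and 62.6% in Adam17-/- coculture, and Bcl2l1 was 14.8% and 11.7% in WT and 5.86%, 6.23% and 6.78% in Adam17-/- coculture. Neither share overlapped between the groups. These sums and shares are descriptions and have no test.

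**Figure D3:**
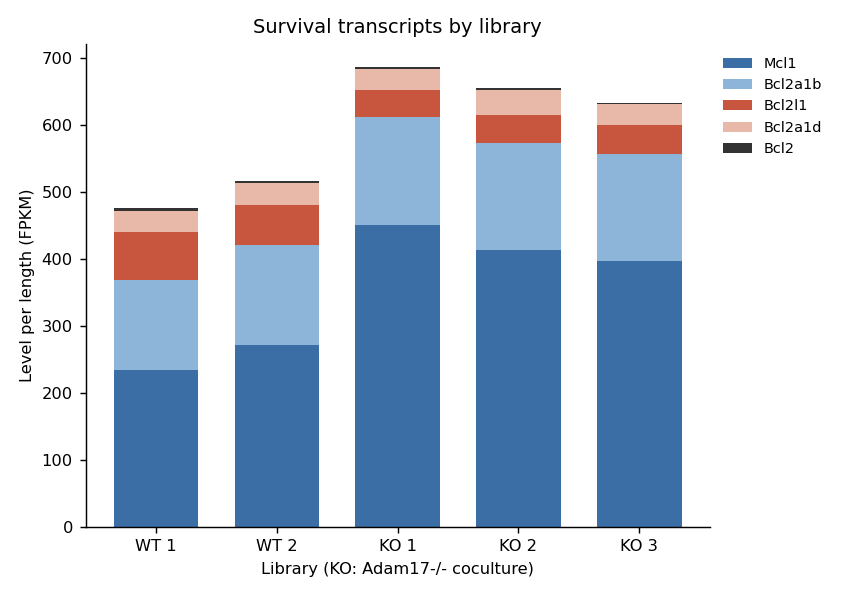
Stacked bars of the FPKM of the 5 survival genes in each of the 5 libraries, on a linear axis from 0 (KO, Adam17-/- coculture). The Mcl1 part rises from 234 and 272 FPKM in the WT libraries to between 397 and 450 FPKM in the Adam17-/- libraries, and the Bcl2l1 part shrinks from 70.5 and 60.1 FPKM to between 40.3 and 43.0 FPKM.

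Ratios within a library do not depend on how libraries are scaled against each other. Mcl1 over Bcl2l1 was 3.32 and 4.52 in WT and 11.2, 10.1 and 9.23 in Adam17-/- coculture. Bax over Bak1 was 1.56 and 1.40 in WT and 2.72, 2.54 and 2.31 in Adam17-/- coculture. No Adam17-/- ratio of either kind overlapped the WT ratios.

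The 3 BH3-only genes summed to 23.1 and 22.7 FPKM in WT and 33.9, 32.9 and 32.8 FPKM in Adam17-/- coculture, and Bcl2l11 was 67.7% to 73.4% of the sum in every library. All 5 survival genes over the 3 BH3-only genes gave 20.6 and 22.8 in WT and 20.3, 19.9 and 19.3 in Adam17-/- coculture. The highest Adam17-/- value lay just under the lowest WT value. Without Mcl1 the same ratio was 10.4 and 10.8 in WT and 6.98, 7.32 and 7.21 in Adam17-/- coculture. The effectors summed to 151 and 129 FPKM in WT and 141, 145 and 137 FPKM in Adam17-/- coculture, which overlapped, but in TMM-normalized CPM they summed to 206 and 172 in WT and 149.7, 157 and 152 in Adam17-/- coculture, which did not.

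**Figure D4:**
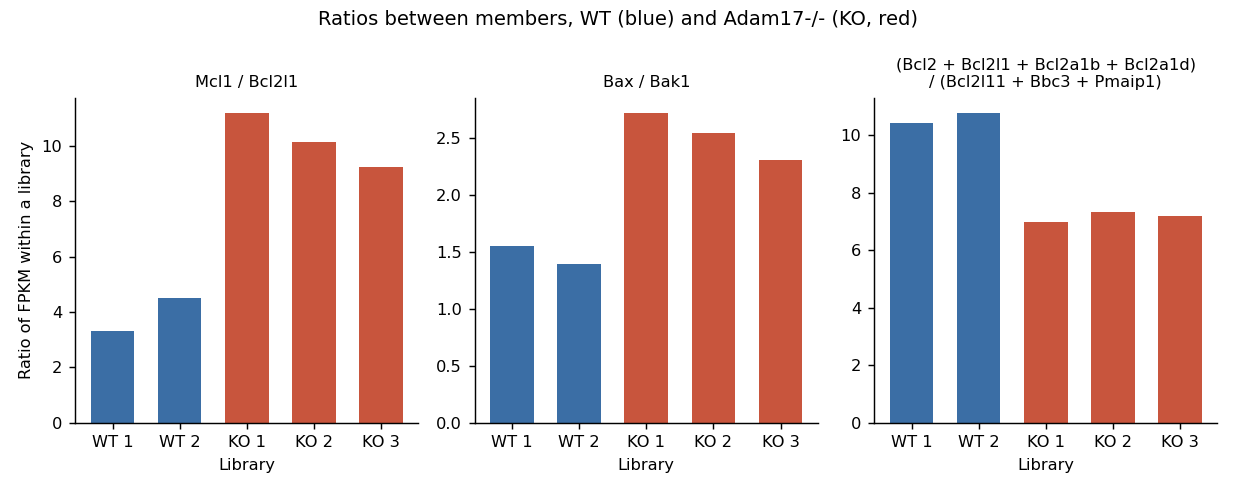
Ratios of FPKM within each library (KO, Adam17-/- coculture), on linear axes from 0, for Mcl1 over Bcl2l1, Bax over Bak1, and the 4 survival genes other than Mcl1 over the 3 BH3-only genes. The first lies at 3.32 and 4.52 in WT and from 9.23 to 11.2 in Adam17-/- libraries, the second at 1.56 and 1.40 against 2.31 to 2.72, and the third at 10.4 and 10.8 against 6.98 to 7.32.

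The wider cell death pathway was followed over 7 lists with 91 genes, the further family genes included. Of the 84 tested, 16 were higher and 16 were lower, which is 19.0% each beside 14.9% and 16.8% of all genes, with a median log2 fold change of -0.02. Of these 32 genes, 15 passed in every alternative that tested them. The counts fell to 10 higher and 5 lower without Adam17-/- replicate 1, to 14 higher and 8 lower without replicate 2, and to 11 higher and 6 lower without replicate 3. With library size only, 21 were higher and 6 lower, and on the FPKM scales 21 and 20 were higher and 6 lower on each.

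The inhibitor of apoptosis list had 5 higher genes of 9 and a median of 0.45 (log2). All 5 passed in every alternative. Birc2 (0.68), which encodes the ubiquitin ligase cIAP1 of TNF receptor signaling, went from 26.9 and 29.8 CPM to between 44.8 and 46.1 CPM. Naip5 (0.71) and Naip1 (0.61) encode sensors of bacterial proteins in inflammasomes, and Birc5 (0.79) encodes survivin, which acts in cell division. Naip genes are similar copies, so the split of counts among them is uncertain.

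The apoptosome and caspase list had 2 higher and 3 lower genes of 12 and a median of 0.01. Casp2 was higher (0.41), while Casp9, the apoptosome's initiator caspase (-0.34), and Parp1, a DNA repair enzyme cut by caspases (-0.46), were lower. Of these, Parp1 passed in all 13 alternatives, Casp2 in 10 and Casp9 in 4. The Casp2 call was lost without Adam17-/- replicate 1 (edgeR adjusted p = 0.0783) or 3 (0.0618), and that of Casp9 without any 1 of the Adam17-/- libraries or WT replicate 1 (0.0721 to 0.161).

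The death receptor list had 1 higher and 2 lower genes of 11 (median -0.08). Tnfrsf1a, the main TNF receptor, was at 229 and 195 CPM in WT and 147, 142 and 146 CPM in Adam17-/- coculture (log2 fold change -0.55, edgeR adjusted p = 0.00234). Ripk1, a kinase of the TNF receptor complex, was lower (-0.32) and passed in 6 of 13 alternatives, and Tnfrsf10b, a TRAIL receptor, was higher (0.35) and passed in 5. The Ripk1 call was lost without any 1 of the Adam17-/- libraries (edgeR adjusted p 0.083 to 0.116), where its log2 fold change stayed between -0.31 and -0.29, and that of Tnfrsf10b without any 1 of the 5 libraries (0.0661 to 0.118).

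Of the p53 list, 14 of 15 genes were tested, with 2 higher, 2 lower and a median of 0.17. Bbc3, Pmaip1 and Bax are p53 targets as well and are counted with the members. Trp53inp1, a p53-induced stress gene (0.94), and Mdm2, the ubiquitin ligase of p53 (0.41), were higher and passed in all 13 alternatives, with Trp53inp1 at 0.62 without WT replicate 1. Aen, an apoptosis nuclease (-0.37), and Sesn2, a stress-induced regulator of mTORC1 (-0.30), were lower and passed in 2 and 4 of 13. Both calls were lost without any 1 of the Adam17-/- libraries and without WT replicate 1, with edgeR adjusted p of 0.103 to 0.215 for Aen and 0.0571 to 0.126 for Sesn2, and Aen was at -0.21 without WT replicate 1.

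The list of regulators of survival and BH3-only genes had 2 higher and 6 lower genes of 18 and a median of -0.16. Myc, a growth-promoting transcription factor, was at 67.6 and 51.5 CPM in WT and 15.7, 14.7 and 23.3 CPM in Adam17-/- coculture (log2 fold change -1.73, SE 0.185, edgeR adjusted p = 0.000477). Foxo3, a transcription factor that activates Bcl2l11 and Bbc3 when growth factor signaling is low, fell by 0.48 on the log2 scale. The related Foxo1, named here after its values were seen, was higher (log2 fold change 0.37, edgeR adjusted p = 0.0188) and passed in 10 of 13 alternatives. Spi1, which encodes the myeloid factor PU.1, fell by 0.53 on the same log2 scale, and by 0.35 without WT replicate 1. Trib3, an ATF4 and CHOP target, was higher (0.52) and passed in 6 of 13 alternatives, and without any 1 of the 5 libraries its edgeR adjusted p was 0.0554 to 0.145.

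The list on the turnover of the MCL1 and BIM proteins had 3 lower genes of 9 tested (median -0.17). Btrc, a substrate receptor of an SCF ubiquitin ligase, fell by 0.48, Rps6ka1, the ERK-activated kinase RSK1, by 0.40 and Bag6, a chaperone of membrane proteins, by 0.37 on the log2 scale. They passed in 8, 11 and 4 of 13 alternatives. The edgeR adjusted p was 0.111 and 0.0673 for Btrc without Adam17-/- replicate 1 or 3, 0.058 for Rps6ka1 without Adam17-/- replicate 1, and 0.0761 to 0.121 for Bag6 without any 1 of the Adam17-/- libraries or WT replicate 1, where Bag6 was at -0.18 without WT replicate 1.

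**Figure D5:**
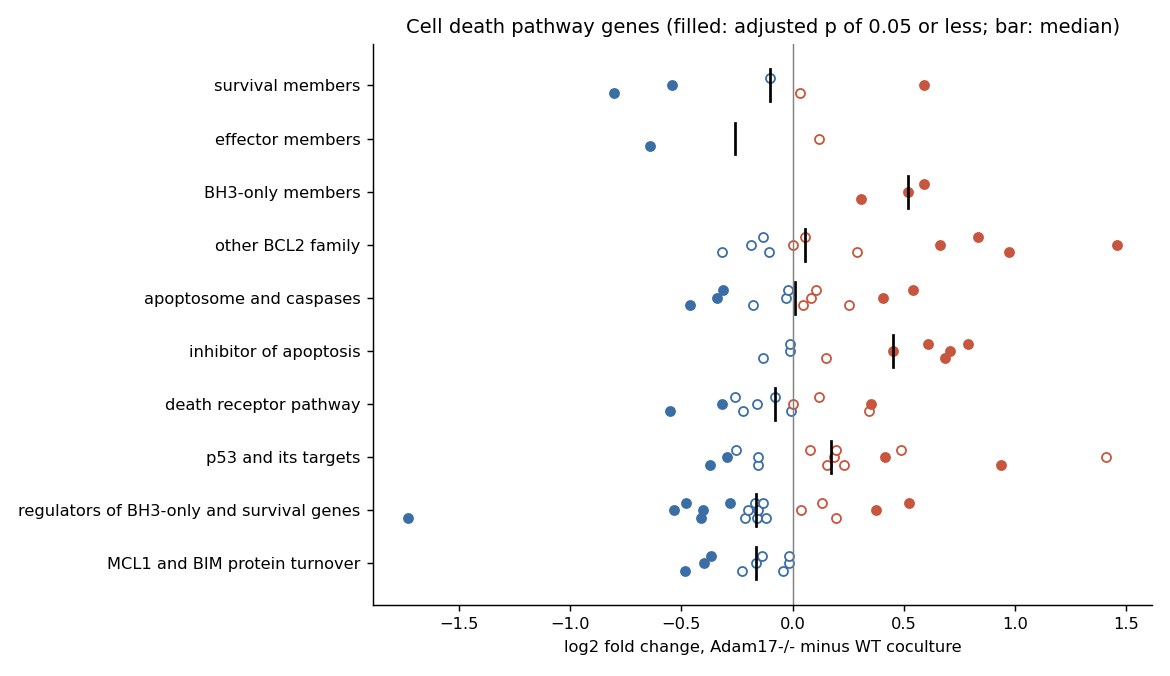
Log2 fold changes of all tested genes by list, Adam17-/- minus WT coculture, 1 point for each gene, filled where the adjusted p was 0.05 or less, with a black bar at the list's median. The BH3-only members and the inhibitor of apoptosis list have medians of 0.52 and 0.45, and Myc lies farthest to the left at -1.73.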

How the data were processed

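Polyadenylated RNA of 5 BMDM cocultures was sequenced at BGI on a BGISEQ platform, paired-end. The authors mapped reads to the mouse genome with HISAT (methods) and used Bowtie2 and RSEM (mm10, submitters' processing notes) and deposited an expected count with its FPKM for the RefSeq transcripts of every library. Tool versions are not given in the sources used here. Between 48.3% and 49.3% of the deposited transcript counts were not whole, since RSEM divides shared reads. Both values were summed per Entrez gene, and expected counts were rounded.

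WT and Adam17-/- groups (2 and 3 libraries) were compared with edgeR 4.0.16 (TMM factors, filterByExpr, quasi-likelihood test, no covariate, R 4.3.3), with Benjamini-Hochberg adjustment over all 12576 genes and a threshold of 0.05. The scripts were tested on simulated data. Alternatives were DESeq2 1.42.0, other factors and count filters, limma 3.58.1 on log2(FPKM + 0.1) and log2(FPKM + 1), a replicate block, leaving out each library, and summed Bcl2a1 copies.

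Members and lists were chosen with earlier results of these data known. The text names the members, further family genes that pass or are among the 3 highest in FPKM, of each other list the passing genes (at most the 4 with the largest change), markers a sentence needs, and the 3 nearest profiles to the passing member with the largest change. Overlapping genes come from GENCODE M21, and gene coordinates from RefSeq (GRCm38.p6). One gene that this rule would name is not reported here.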

Additional observations from a re-analysis of the deposited data

How the results depend on the processing

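Each member was refitted under 13 alternatives, and the Bcl2a1 genes under 14. Bcl2l1, Mcl1 and Bak1 passed in all of them. The 1869 higher and 2114 lower genes became 3019 and 1077 with library size only, 2927 and 1016 on log2(FPKM + 0.1), and 2867 and 1011 on log2(FPKM + 1). Leaving out 1 library gave 1089 to 2460 higher and 926 to 2940 lower genes (1089 and 926, 1240 and 1168, and 1208 and 1237 without Adam17-/- replicate 1, 2 and 3), 1 to 4 members higher and 3 lower, and, of the 84 further genes, 10 to 18 higher and 5 to 22 lower against 16 and 16. The further higher and lower genes were 16 and 10 with upper quartile factors, 21 and 6 with library size only, 21 and 6 on log2(FPKM + 0.1) and 20 and 6 on log2(FPKM + 1). With a change of at least 1 on the log2 scale required, 0 members were higher and 0 lower. Bcl2 was -0.38 and -0.29 on the FPKM scales, and Pmaip1 was 0.51 in DESeq2. Bcl2a1d turned to 0.0280 with the copies summed, 0.0431 with library size only, 0.0416 on log2(FPKM + 0.1) and 0.0406 on log2(FPKM + 1). Leaving out 1 library moved Bax from -0.0508 to 0.31, Bcl2a1b from -0.0057 to 0.0626, Bbc3 from 0.38 to 0.83, Bcl2l11 from 0.27 to 0.34 and Pmaip1 from 0.43 to 0.60. Without a WT library, the lone WT sample is assumed to vary like the Adam17-/- libraries. The cause of each change was not tested, except that leaving out a library leaves fewer samples.

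Equal replicate numbers were not taken as pairs, since the labels say only repeat. Deviations from the group mean correlated at -0.124 for replicate 1 and -0.0504 for replicate 2. With 2 WT libraries, the deviations of 1 mirror those of the other, so these values cannot settle whether the libraries were paired. With the replicate block, in which Adam17-/- replicate 3 has no partner, 1216 genes were higher and 1126 lower, 6 of the further genes were lower, and Bcl2l11 was 0.31 with an edgeR adjusted p of 0.15.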
